A study of Homo sapiens with 12 samples.

Results

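To see where METTL16, eIF3a and eIF3b sit on the mRNAs of the canonical Wnt pathway, the peaks of 10 genes were taken from 6 RNA immunoprecipitation sequencing (RIP-seq) peak lists of HepG2 cells. The genes were CTNNB1, AXIN1, AXIN2, APC, GSK3B, TCF7L2, LRP5, LRP6, RNF43 and ZNRF3, chosen by name as pathway components, and a row of a list counted as theirs when the deposited gene name was one of these symbols. They are 10 of the 10830 gene names with a peak in any list, and they hold 211 peaks over the 6 lists. HepG2 is an established human liver cancer line. Stable HepG2 lines overexpressed 3XFlag-tagged METTL16 from the vector pmiRNA1, or 3XFlag-tagged eIF3a or eIF3b from pSIN4, and were irradiated with ultraviolet light to cross-link protein and RNA before they were lysed. Each protein had 2 RIP samples and 2 input samples, 12 in all. Per the labels, a Flag antibody served for METTL16 and eIF3b and an antibody to eIF3a itself for eIF3a, so antibody and protein cannot be told apart for eIF3a (the names of the lists say flag for all 6). All the cells carried an overexpressed protein, and the study's text calls the replicates biological, while the labels do not say what separated them.

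METTL16 is an RNA adenosine methyltransferase, and eIF3a and eIF3b are subunits of the initiation factor complex that joins mRNA to the small ribosomal subunit. In the canonical Wnt pathway, a destruction complex built on AXIN1 or AXIN2 and APC presents beta-catenin, the product of CTNNB1, to the kinase GSK3B, which marks it for degradation. Wnt ligands bind Frizzled receptors and the co-receptors LRP5 and LRP6, the complex is then disabled, and beta-catenin enters the nucleus and activates genes with TCF factors such as TCF7L2. The ubiquitin ligases RNF43 and ZNRF3 remove Frizzled from the cell surface. HepG2 carries a CTNNB1 deletion that takes out exons 3 to 4, which encode the stretch that GSK3B phosphorylates, next to an intact allele, so the pathway is active in this line.

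Stretches of coding sequence that carry the main positions are printed here from the GRCh38 genome, 5′ to 3′ on the transcript strand. The GSK3B stretch holds the opening 128 coding bases, which lay under a peak in all 6 lists, with the start codon in capitals (chr3:120002200-120093434, minus strand, exons 1 and 2 joined). The CTNNB1 stretch holds the last 39 coding bases with the stop codon in capitals (chr3:41239304-41239342, plus strand), covered in full in 4 lists. The AXIN1 stretch runs over the junction of exons 9 and 10 (chr16:289561-291239, minus strand), with the sequence ACAGAGA, the core of the METTL16 site in U6 RNA, in capitals. Next come TCF7L2 exon 10 (chr10:113151725-113151884, plus strand), which encodes part of the HMG box that binds DNA, and LRP5 exon 16 (chr11:68425978-68426187, plus strand), both covered in full in all 6 lists. The ZNRF3 stretch is the whole of what all 6 lists shared on that gene (chr22:29050816-29050936, plus strand, in exon 8).
GSK3B start: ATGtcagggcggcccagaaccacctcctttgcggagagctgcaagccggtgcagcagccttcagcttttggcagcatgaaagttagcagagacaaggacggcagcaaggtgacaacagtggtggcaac
CTNNB1 stop: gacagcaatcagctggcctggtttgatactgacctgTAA
AXIN1 junction: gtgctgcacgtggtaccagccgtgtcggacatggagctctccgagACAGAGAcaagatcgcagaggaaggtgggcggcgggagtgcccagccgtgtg
TCF7L2 exon 10: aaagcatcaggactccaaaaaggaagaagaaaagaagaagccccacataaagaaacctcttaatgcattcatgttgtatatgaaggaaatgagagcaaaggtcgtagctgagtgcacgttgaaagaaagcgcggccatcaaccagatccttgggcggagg
LRP5 exon 16: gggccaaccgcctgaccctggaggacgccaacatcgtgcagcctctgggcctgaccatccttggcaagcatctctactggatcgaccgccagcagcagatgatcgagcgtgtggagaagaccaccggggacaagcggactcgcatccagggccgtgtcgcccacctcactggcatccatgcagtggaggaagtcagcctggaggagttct
ZNRF3 exon 8: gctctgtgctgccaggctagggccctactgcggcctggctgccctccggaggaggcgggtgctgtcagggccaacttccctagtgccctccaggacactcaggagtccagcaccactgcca

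The lists were of unequal size, with peaks on 5829 and 6337 genes for METTL16, 8166 and 5226 for eIF3a, and 8063 and 7570 for eIF3b (replicates 1 and 2). The eIF3a replicate 2 list thus held the fewest genes and differed most from its partner. No read counts were used, so the depth behind a peak is unknown, and a peak is enrichment of RIP over input rather than a level of the mRNA. Of 12 liver marker genes, 11 had a peak in some list (not TTR), and SERPINA1, HNF4A and FOXA2 were among those with one in all 6. Of 6 markers of fibroblasts, leukocytes and endothelium, VIM and PECAM1 had a peak in 4 lists and PTPRC in 1, while COL1A1, COL1A2 and CD3E had none.

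Nearly all of these mRNAs were found with every protein. A gene was called bound when it had a peak in both replicates, and METTL16 bound 8 of the 10 genes, against 42.6% of all gene names. eIF3a bound 10 of 10, against 42.4%, and eIF3b bound 10 of 10, against 60.0%. All 3 proteins bound 8 of 10, against 25.2%, which by this definition means a peak in each of the 6 lists. The exceptions were both on the METTL16 side. APC had no METTL16 peak in either replicate, and LRP6 had a METTL16 peak only in replicate 2. The 10 genes have a median exon length of 7263 bases, against 5510 over the 10752 genes with a gene model, and the part of this length in the counts was not tested.

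The enrichment itself was low for most peaks on these genes. Deposited fold enrichments of their peaks ran from 1.32 to 38.4, and 38 of 211 peaks reached 4-fold. By list, 13.9% and 19.2% of their METTL16 peaks were at least 4-fold, against 35.9% and 40.9% of all METTL16 peaks. For eIF3a these shares were 14.0% and 6.67%, against 32.7% and 30.3%, and for eIF3b 25.6% and 27.0%, against 38.3% and 32.5%. Taken by gene, the median percentile of the best fold among the genes of a list was 33.9 and 39.7 for METTL16. It was 44.1 and 40.8 for eIF3a, and 48.1 and 55.5 for eIF3b. Each of the 10 genes reached at least 4.77-fold in some list. Peaks were 60 to 3683 bases wide, with a median of 211, and 106 of the 211 lay in a single block. With only peaks of at least 4-fold, METTL16 bound 2 of the 10 genes, eIF3a 1 and eIF3b 4, and no gene was bound by all 3. The shares of all gene names under this limit were not counted, so these counts cannot be read as particular to the 10 genes.

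Most peaks lay over coding sequence, as did most peaks of all genes. The peak centre fell in the coding sequence of the canonical transcript for 66.7% and 80.0% of the METTL16 peaks, 65.1% and 72.4% of the eIF3a peaks, and 61.5% and 56.8% of the eIF3b peaks. The values over all genes were 61.5% and 69.3%, 57.4% and 58.5%, and 61.9% and 58.2%. The share centred in the 5′ UTR was 13.9% and 12% for METTL16, 4.65% and 6.90% for eIF3a, and 12.8% and 16% for eIF3b, and over all genes 6.55% and 6.61%, 4.51% and 3.03%, and 7.73% and 5.67%. Both METTL16 values and both eIF3b values of this share lay above both eIF3a values (exact permutation of 2 lists against 2 cannot go below p = 0.333). The same order held over all genes. On the 10 genes the shares rest on only 5 and 3 peaks for METTL16, 2 and 2 for eIF3a, and 5 and 6 for eIF3b. The eIF3a peaks among them lay on CTNNB1 and TCF7L2 alone. A start codon lay under 15 of the 211 peaks and a stop codon under 20.

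CTNNB1 (chromosome 3, 15 exons, plus strand) was marked at its ends and not in the exons that the HepG2 deletion removes. No list had a base under a peak in exon 3 (228 coding bases) or exon 4 (254 coding bases), nor in exons 5 to 8 or exon 10. Because all 6 lists were also empty over exons 5 to 8, which the deletion leaves in place, the gap was wider than the deletion, and the part of the deleted allele in it was not tested.

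**Figure D1:**
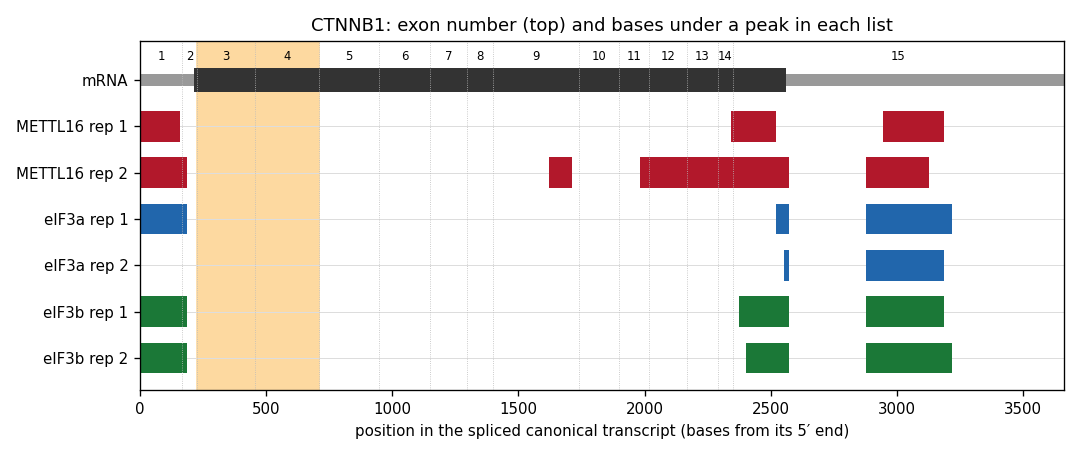
Bases of the spliced CTNNB1 mRNA under a peak in each of the 6 lists, with the position in bases on the horizontal axis, the coding sequence as the thick dark bar and exons 3 and 4 shaded. Peaks sit over exon 1 in 5 lists and over the 3′ end in all 6, and only METTL16 replicate 2 reaches exons 9 and 11 to 13.

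At the 5′ end of CTNNB1, exon 1, which is all 5′ UTR, had 157 and 160 of its 166 bases under a peak in the METTL16 lists, 160 and 0 in the eIF3a lists, and 166 in both eIF3b lists. The fold enrichment of this peak was 2.37 and 1.83 for METTL16, 2.04 for eIF3a replicate 1, and 4.40 and 3.18 for eIF3b, so both eIF3b values lay above the other 3. In 4 lists the peak ended 21 bases into exon 2, short of the start codon. At the 3′ end, exon 15 (1310 bases, 206 of them coding before the stop codon) had 412 and 471 bases under a peak with METTL16, 391 and 331 with eIF3a, and 510 and 510 with eIF3b. A peak ran over the stop codon printed above in every list but METTL16 replicate 1. All 6 lists shared 181 bases, all in the 3′ UTR (chr3:41239729-41239909).

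The METTL16 replicates differed most inside the CTNNB1 coding sequence. METTL16 replicate 2 had a peak of 91 bases in exon 9 (1.33-fold) and a peak of 840 bases from exon 11 to the 3′ UTR (3.30-fold) that covered exons 12, 13 and 14 in full. METTL16 replicate 1 had 9 bases of exon 14 and none of exons 9 to 13. The share of CTNNB1 exon bases under a peak, its coverage, was 5.12% and 9.46% with METTL16, 4.86% and 2.81% with eIF3a, and 6.13% in both eIF3b lists. CTNNB1 was the only one of the 10 genes whose METTL16 values both lay above its eIF3a values (mean 7.29% ± 3.07 against 3.84% ± 1.45, SD, n = 2 each, exact permutation p = 0.333). The margin was small, with 602 bases in METTL16 replicate 1 against 572 in eIF3a replicate 1.

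Among the scaffold genes of the destruction complex, AXIN1 (chromosome 16, 11 exons, minus strand) had the highest fold enrichment of all 10 genes. A 5′ UTR peak in exon 1 reached 38.4-fold and 17.3-fold in METTL16 replicates 1 and 2 and 4.31-fold and 2.60-fold in the eIF3b lists, and was absent from both eIF3a lists. The p-values of this peak were 3.2e-18 and 2.5e-14 for METTL16 and 2.5e-11 and 0.0038 for eIF3b, as deposited from the peak caller. Thus the METTL16 folds were above the eIF3b folds in every pairing of lists, although the METTL16 peak of replicate 1 ranked only 2522 by p-value in its list. Every list also had a coding AXIN1 peak over exons 6 to 10 that was 2.54-fold to 4.86-fold enriched. All 6 lists shared 1113 AXIN1 bases in 9 intervals, of which the longest were 314 bases of exon 6 and 231 bases of exon 8. Coverage was 21.9% and 25.1% with METTL16, 19.1% and 28.7% with eIF3a, and 29.5% and 25.1% with eIF3b, and the 3 pairs of values overlapped one another.

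AXIN2 (chromosome 17, minus strand), another scaffold that is itself a transcriptional target of the pathway, was covered in pieces. Its coverage was 16.7% and 12.7% with METTL16, 17.3% and 4.04% with eIF3a, and 35.1% and 12.6% with eIF3b, so each pair of replicates except that of METTL16 spread more than 2-fold. A peak over the start codon was present in METTL16 replicate 1 (2.65-fold) and in both eIF3b lists (3.04-fold and 1.92-fold), and absent from the other 3 lists. The highest value was a 3′ UTR peak of 9.74-fold in eIF3b replicate 1, without a counterpart in eIF3b replicate 2. No base of AXIN2 was under a peak in all 6 lists.

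APC (chromosome 5, plus strand), the large scaffold that helps bring beta-catenin to the complex, was at the edge of detection. It had no METTL16 peak, 5 and 2 peaks with eIF3a, and 1 and 2 with eIF3b, all in coding sequence and 61 to 210 bases wide. Coverage was 3.99% and 1.56% with eIF3a and 0.448% and 2.00% with eIF3b. The eIF3a replicates did not overlap in any base, while eIF3a replicate 2 and eIF3b replicate 2 shared a peak of 151 bases in exons 6 to 8 (2.49-fold and 2.63-fold). By its best p-value, APC ranked low among the genes of each of these lists, from 72.5% down the list in eIF3b replicate 2 to 98.3% in eIF3b replicate 1.

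GSK3B (chromosome 3, 11 exons, minus strand), the kinase of the complex, had the most regular position of all. A peak over its start codon, spanning exons 1 and 2, was present in all 6 lists and ended at the same base of exon 2 in each. Its fold enrichment was 2.60 and 1.88 with METTL16, 2.75 and 1.75 with eIF3a, and 2.59 and 2.53 with eIF3b, so the 3 proteins overlapped. It was 181 bases wide in 3 lists and 211 in the other 3, and the 181 bases were the whole of what all 6 lists shared. Peak widths on the 10 genes mostly fell in regular steps, so a shared end is no finer than such a step. GSK3B was the only one of the 10 genes with a start codon under a peak in every list.

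Upstream in the GSK3B 5′ UTR, a peak was present in both METTL16 lists (4.08-fold and 3.50-fold) and both eIF3b lists (10.3-fold and 6.66-fold) and in neither eIF3a list. The eIF3b folds lay above the METTL16 folds here, the reverse of the order at the AXIN1 5′ UTR. Of the 24 GSK3B peaks, 13 were centred in the 3′ UTR, which makes up 5467 of the 7743 bases of the transcript. In 4 lists a 3′ UTR peak covered bases 6329 to 6479 of the transcript, and METTL16 replicate 2 had no 3′ UTR peak at all.

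TCF7L2 (chromosome 10, 15 exons, plus strand), the DNA-binding partner of beta-catenin, had strong peaks over its later coding exons. A peak from exon 7 to exon 15 was 11.9-fold enriched in METTL16 replicate 1, 11.3-fold in eIF3a replicate 1 and 13.7-fold in eIF3b replicate 1. In METTL16 replicate 2 a peak over exons 8 to 15 was 3.97-fold, in eIF3b replicate 2 a peak over exons 6 to 15 was 7.38-fold, and in eIF3a replicate 2 a peak over exons 9 to 12 was 2.16-fold. The peaks of replicate 2 had other ends than those of replicate 1, so these folds belong to unlike stretches. Exon 15 had a further peak of its own in the replicate 2 lists, 7.15-fold with METTL16, 3.54-fold with eIF3a and 16.9-fold with eIF3b. Only the eIF3b value lay above the long peak of the same protein in replicate 1. All 6 lists shared 539 bases in 7 intervals, including the whole of exons 10 and 11, which encode most of the HMG box. In the 5′ UTR, eIF3b had a peak of 418 bases in both lists (13.3-fold and 6.97-fold), eIF3a shorter peaks in both (up to 4.25-fold) and METTL16 a peak of 91 bases in replicate 1 alone (4.77-fold). Coverage was 22.2% and 11.5% with METTL16, 32.3% and 19.1% with eIF3a, and 29.7% and 28.8% with eIF3b.

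**Figure D2:**
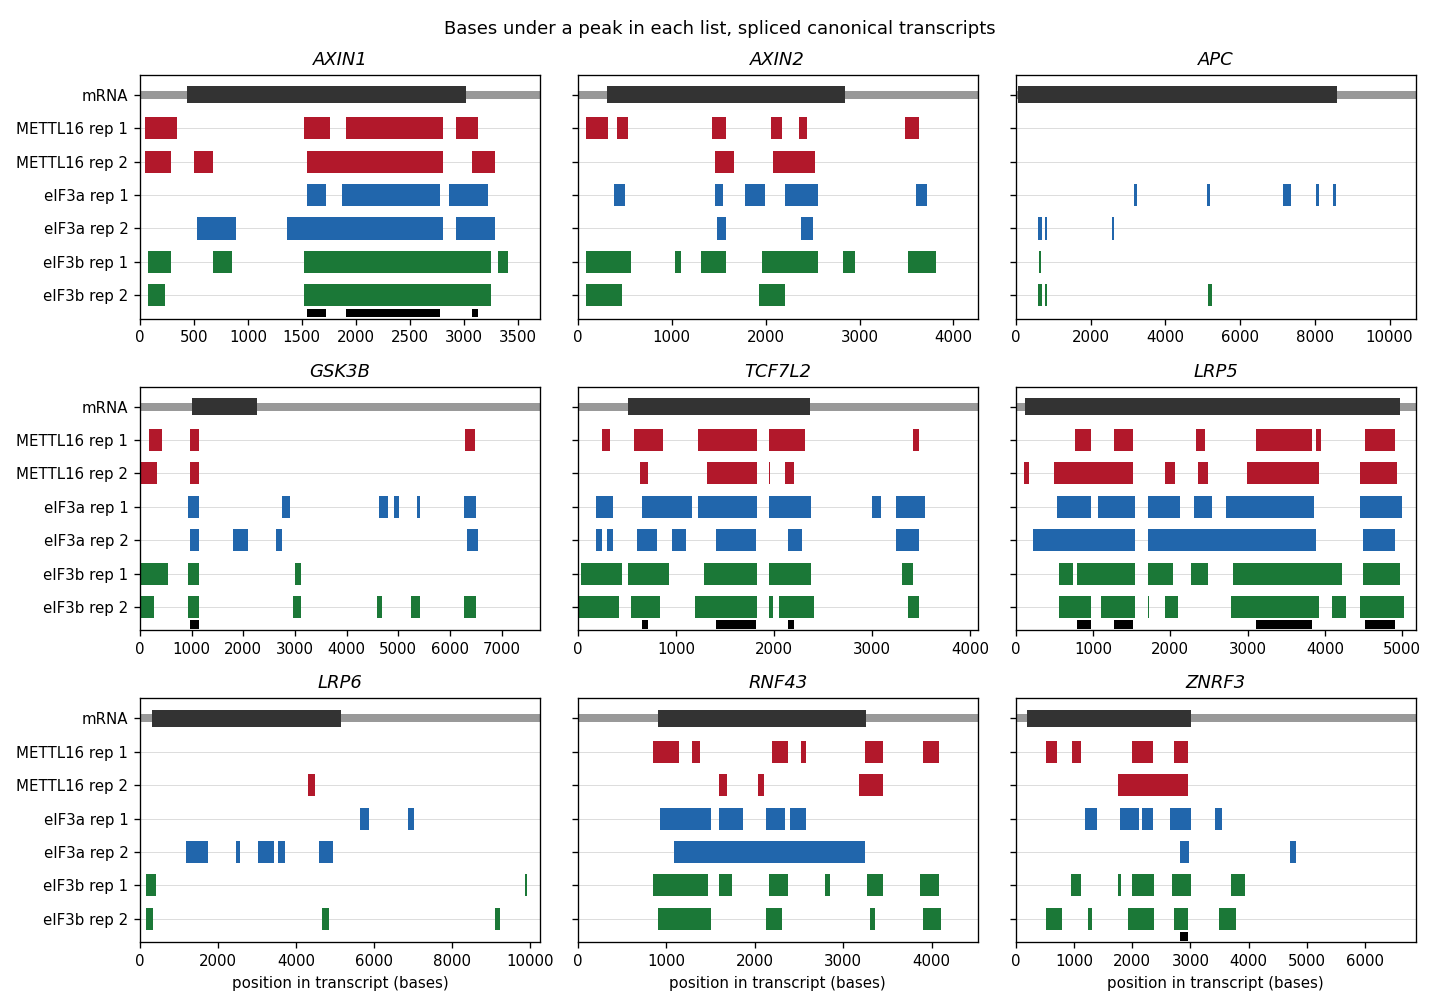
Bases under a peak in each list on the spliced mRNAs of the other 9 genes, with the position in bases on the horizontal axis, the coding sequence as the thick dark bar, METTL16 in red, eIF3a in blue and eIF3b in green, and black bars under the tracks for bases shared by all 6 lists. AXIN1, GSK3B, TCF7L2, LRP5 and ZNRF3 have shared bases, and AXIN2, APC, LRP6 and RNF43 have none.

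The co-receptor genes LRP5 and LRP6, which are related in sequence and function, differed in every list. LRP5 (chromosome 11, 23 exons, plus strand) had coverage of 28.2% and 45.6% with METTL16, 54.3% and 66.4% with eIF3a, and 56.3% and 48.0% with eIF3b. Counted so, over the merged exons of all transcripts, it was the highest of the 10 genes in every list. Over the canonical transcript alone, LRP5 in METTL16 replicate 1 (33.7%) was below AXIN1 (44.6%) and TCF7L2 (34.8%), and it stayed highest in the other lists. LRP6 (chromosome 12, 23 exons, minus strand) had 0% and 1.74% with METTL16, 3.78% and 15.3% with eIF3a, and 2.90% and 4.66% with eIF3b. In each of the 6 lists the LRP5 value was above the LRP6 value.

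LRP5 was covered widely but weakly. Of its 33 peaks, 32 were centred in coding sequence, and the highest fold per list was 2.58 and 4.79 with METTL16, 2.71 and 3.37 with eIF3a, and 3.45 and 4.20 with eIF3b. The widest peak of all 10 genes was the LRP5 peak of eIF3a replicate 2, with 3683 bases in 17 blocks from exon 2 to exon 18. All 6 lists shared 1532 bases in 11 intervals, among them exons 14, 15 and 16 in full and 198 bases of exon 23 that stop short of the stop codon.

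The LRP6 peaks were few, and the only METTL16 peak had 180 bases in exons 19 and 20 (2.81-fold). The peaks of eIF3a replicate 1 were both in the 3′ UTR, whereas all 5 of eIF3a replicate 2 were in coding sequence, so these replicates shared no base. Both eIF3b lists had a peak over the LRP6 start codon (2.16-fold and 2.66-fold), and the eIF3b replicates shared 181 bases there.

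The ligase genes RNF43 and ZNRF3, which limit Wnt signalling at the membrane and whose products are alike in build, had middling coverage. For RNF43 (chromosome 17, 10 exons, minus strand) it was 16% and 6.67% with METTL16, 19.5% and 34.1% with eIF3a, and 22.8% and 16.6% with eIF3b. In the eIF3a replicate 2 list, 1 of 2 RNF43 peaks ran over exons 2 to 10 with 2158 bases (12.2-fold). The other, of 121 bases (13.5-fold), lay outside the annotated exons of the gene. The eIF3a replicate 1 list instead had 4 peaks of 2.91-fold to 4-fold, all in coding sequence. In the other 4 lists no RNF43 peak exceeded 3.22-fold. A peak over the start codon was found in METTL16 replicate 1 (2.43-fold) and eIF3b replicate 1 (2.89-fold), and a peak over the stop codon in both METTL16 lists (2.52-fold and 3.04-fold).

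ZNRF3 (chromosome 22, 9 exons, plus strand) had coverage of 13.3% and 17.1% with METTL16, 17.2% and 3.45% with eIF3a, and 17.2% and 18.9% with eIF3b. Its peaks gathered in exon 8, where METTL16 replicate 2 had a single peak of 1198 bases (5.29-fold) and METTL16 replicate 1 had peaks of 360 and 240 bases (3.07-fold and 2.77-fold). The eIF3a replicate 2 list had only 151 bases at the end of that exon and the start of exon 9 (1.68-fold) and 90 bases in the 3′ UTR (2.20-fold). Even so, all 6 lists shared the 121 bases of exon 8 printed above. In total 6 of the 10 genes had such a shared position, and the replicates overlapped on 8 genes for METTL16, 8 for eIF3a (not APC or LRP6) and 10 for eIF3b. These counts were not made over all genes, so they cannot be read as particular to the 10 genes.

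To ask whether the proteins differ in how much of each mRNA lies under a peak, the values of the 2 lists of a protein were set against those of another, and a gene was called separate when they did not overlap. Between METTL16 and eIF3a, 1 gene was higher with METTL16 (CTNNB1), against 12.8% of the 10752 genes, and 5 were higher with eIF3a (APC, GSK3B, LRP5, LRP6 and RNF43), against 21.8%. Between METTL16 and eIF3b, no gene was higher with METTL16, against 4.93%, and 7 were higher with eIF3b (APC, GSK3B, TCF7L2, LRP5, LRP6, RNF43 and ZNRF3), against 35.9%. Between eIF3a and eIF3b, no gene was higher with eIF3a, against 6.12%, and 2 were higher with eIF3b (CTNNB1 and ZNRF3), against 21.5%. The comparisons share lists and are not independent, and no single gene can pass a threshold, since the smallest exact permutation p of 2 lists against 2 is 0.333 (two-sided).

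The largest of these gaps was on LRP5, with 36.9% ± 12.3 for METTL16, 60.4% ± 8.52 for eIF3a and 52.2% ± 5.82 for eIF3b (SD, n = 2 each). RNF43 followed for eIF3a (11.4% ± 6.71 with METTL16 against 26.8% ± 10.3), and TCF7L2 for eIF3b (16.9% ± 7.51 against 29.3% ± 0.619). The median coverage of all genes with a peak was also lower in the METTL16 lists (5.80% and 6.13%) than in the eIF3a (6.38% and 6.74%) and eIF3b lists (8.21% and 7.02%), and the part of list size in the gaps was not tested. Left with eIF3a replicate 1 alone, all 10 genes were separate between METTL16 and eIF3a, and with 5000 peaks in every list 2 were. Between eIF3a and eIF3b, leaving out any of the 4 lists gave 5 to 8 separate genes. The shares over all genes were not counted under these alternatives.

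**Figure D3:**
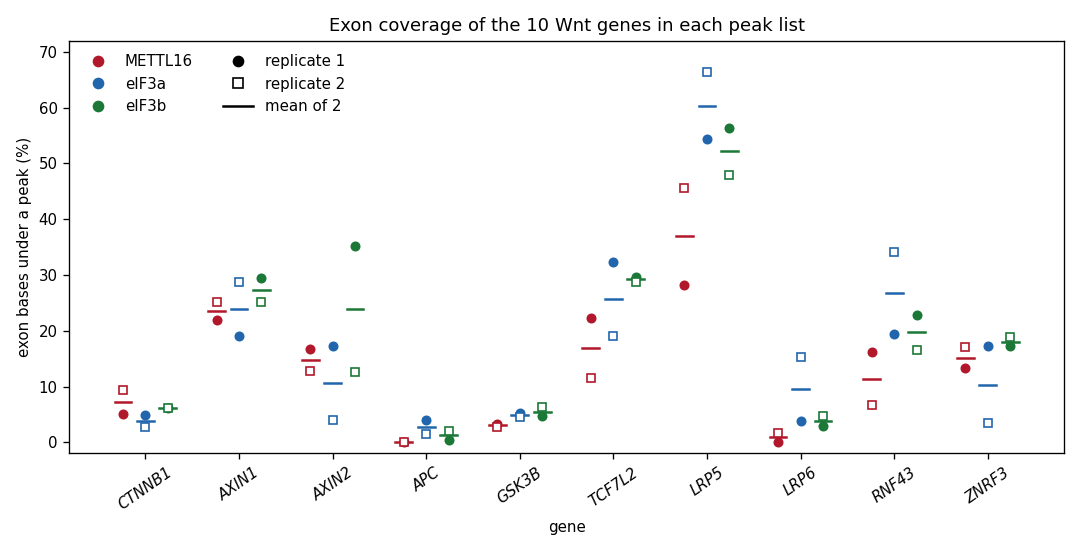
Merged exon bases under a peak, in percent, for each of the 10 genes, with filled circles for replicate 1, open squares for replicate 2 and bars for the mean of the 2. LRP5 is highest with every protein (28.2% to 66.4%), and APC, GSK3B, CTNNB1 and LRP6 stay under 10% in all lists except LRP6 in eIF3a replicate 2 (15.3%).

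The order of the genes by coverage went with their base composition. The GC content of the canonical transcript was 39.6% for APC, 40.9% for LRP6, 42.2% for GSK3B, 44.7% for CTNNB1 and 45.6% for TCF7L2, against a median of 49.6% over all genes with a model. It was 53.1% for AXIN2, 53.5% for ZNRF3, 54.2% for RNF43, 62.9% for LRP5 and 63.5% for AXIN1. Across the 10 genes, Spearman's rho of GC with coverage was 0.815 and 0.867 in the METTL16 lists, 0.794 and 0.673 in the eIF3a lists, and 0.782 and 0.830 in the eIF3b lists. Over the 10752 genes rho was 0.319 and 0.452, 0.134 and 0.0352, and 0.413 and 0.113. These are descriptions across genes measured in the same libraries, and genes are not replicates. The genes of lowest GC also had the longest merged exons, by which coverage is divided. These were 13623 bases for APC, 10369 for LRP6, 17871 for GSK3B and 11759 for CTNNB1, against 5197 (AXIN2) to 7537 (AXIN1) for the rest. GC and exon length thus went together here, and the part of each in the order was not tested. The part of base composition in the contrast of LRP5 and LRP6 was not tested.

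Peaks were also richer in GC than the mRNA they lay on. The mean GC of the CTNNB1 peaks was 53.9%, against 44.7% for its transcript, and the other 9 genes had the same direction, with GSK3B at 50.5% against 42.2% and LRP5 at 64.3% against 62.9%. Single peaks went both ways. Those on CTNNB1 ran from 35.3% (3′ UTR) to 70.7% (exon 1), both in METTL16 replicate 1. This comparison of peak and transcript was not made over all genes. By list, the mean GC of the peaks on the 10 genes was 60.6% and 63.5% for METTL16, 54.2% and 52.5% for eIF3a, and 58.9% and 57.1% for eIF3b. Over all peaks it was 59.0% and 60.8%, 53.7% and 53.1%, and 58.1% and 54.1%.

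**Figure D4:**
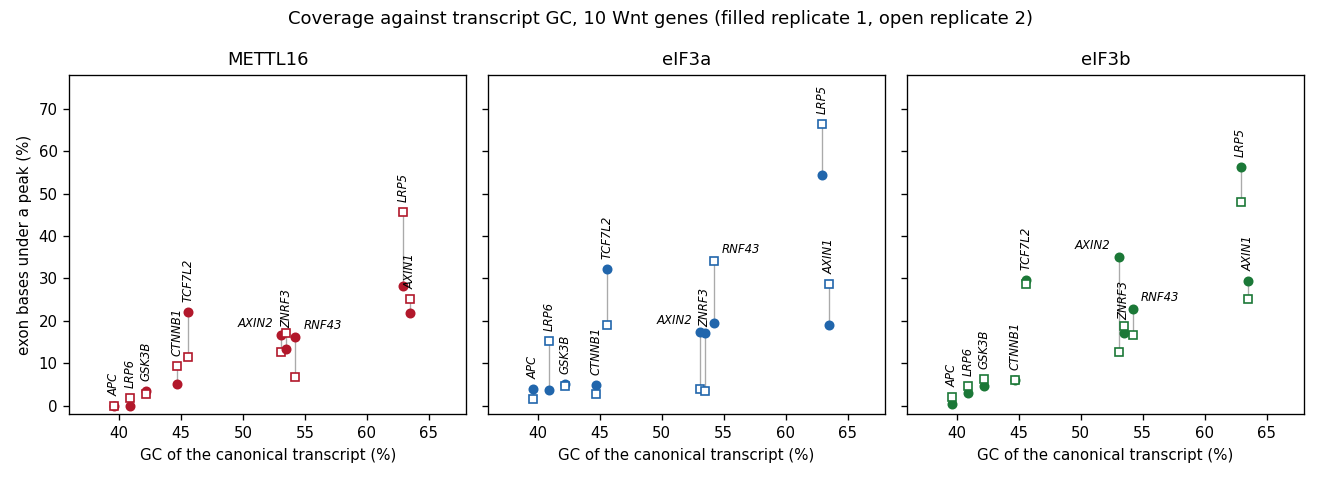
Merged exon bases under a peak (percent, vertical axis) against the GC content of the canonical transcript (percent, horizontal axis) for the 10 genes, with a panel for each protein, with replicates joined by a line. In each panel APC, LRP6, GSK3B and CTNNB1 lie low (15.3% at most), TCF7L2 lies above them at 45.6% GC, and LRP5 is highest at 62.9%.

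The sequence ACAGAGA, searched on the transcript strand only, was in 9 of the 211 peaks, all on AXIN1 and AXIN2. On AXIN1 it spans the junction of exons 9 and 10 in the coding sequence printed above and lay under a peak in all 6 lists. On AXIN2 it is in the 5′ UTR part of exon 2 and lay under a peak in 3 lists, METTL16 replicate 1 and both eIF3b lists. By list, 0.224 and 0.105 copies per kb of peak were found on the 10 genes for METTL16, against 0.143 and 0.134 over all METTL16 peaks, counts that rest on 2 and 1 copies. For eIF3a the values were 0.0784 and 0.0756, against 0.172 and 0.164 over all its peaks, and for eIF3b 0.142 and 0.161, against 0.149 and 0.182. Between 3.27% and 5.36% of all peaks of a list held the sequence. GSK3B, LRP6, APC and ZNRF3 hold copies elsewhere in their transcripts, and none of those lay under a peak.

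A wider list of 118 other Wnt pathway genes was counted in the same way. Of these, 68 had a peak in any list. METTL16 bound 40, eIF3a 41 and eIF3b 51, which is 58.8%, 60.3% and 75.0% of the 68, against 42.6%, 42.4% and 60.0% of all gene names. All 3 proteins bound 30, or 44.1% of the 68, against 25.2%.

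**Figure D5:**
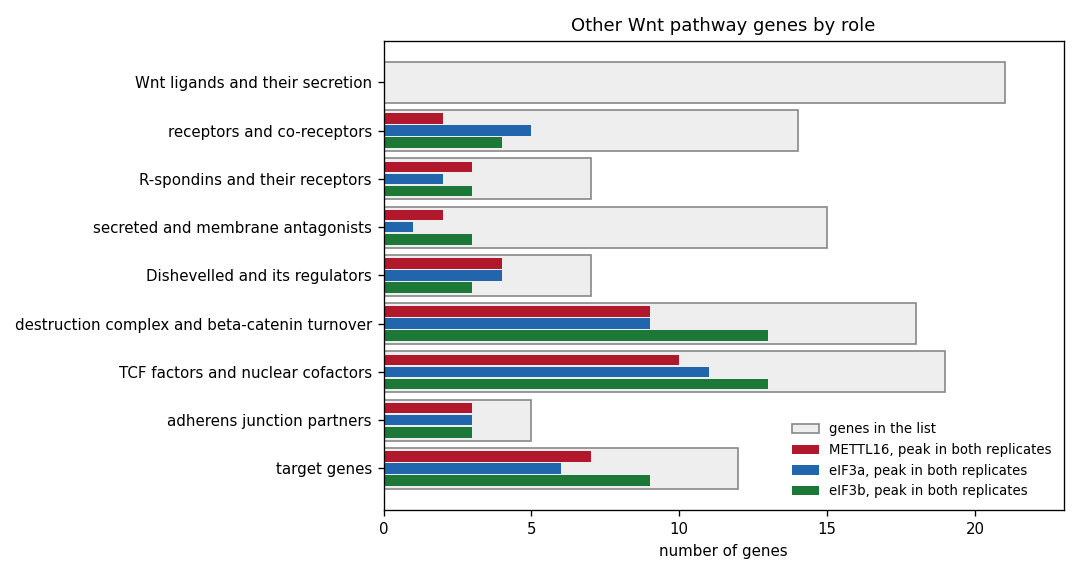
Number of other Wnt pathway genes with a peak in both replicates of METTL16 (red), eIF3a (blue) and eIF3b (green), by role, over grey bars for the number of genes in each role. The ligand group has none of 21, and the TCF and cofactor group has 10, 11 and 13 of 19.

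Among Wnt ligands and their secretion factors, 1 of 21 genes had any peak, WNT10B in eIF3a replicate 1 (19.8-fold), and none was bound. Of 14 receptors and co-receptors, 2, 5 and 4 were bound by METTL16, eIF3a and eIF3b, and the Frizzled receptor FZD4 by all 3 (1.86-fold to 2.96-fold as its best peak per list). Of 7 R-spondins and their receptors, 3, 2 and 3 were bound. LGR6 (8.87-fold to 48.8-fold) and LGR4 (1.97-fold to 9.96-fold), both receptors of R-spondins, were bound by all 3. Of 15 antagonists, 2, 1 and 3 were bound, with NOTUM, a deacylase that inactivates Wnt ligands, at 2.14-fold to 6.37-fold.

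Of 7 Dishevelled genes and regulators, 4, 4 and 3 were bound, among them NKD1, DVL1 and DVL3. NKD1, a feedback inhibitor of Dishevelled, reached 31.1-fold and 48.8-fold with METTL16, 5.67-fold and 3.88-fold with eIF3a, and 6.99-fold and 5.14-fold with eIF3b, so both METTL16 values lay above the others. DVL3 had the same order, with 21.2-fold and 15.5-fold against 4.14-fold to 5.79-fold. These are the best peaks of each list and may lie at different positions. The share of all genes with this order was not counted. TLE3, named below, did not have it (17.5-fold and 9.19-fold with METTL16, 23.7-fold and 17.6-fold with eIF3b). Of 18 further genes of the destruction complex and beta-catenin turnover, 9, 9 and 13 were bound. The paralog APC2 had a peak in all 6 lists (3.66-fold to 31.0-fold), unlike APC, and the casein kinase genes CSNK1E and CSNK1G2 had too (3.89-fold to 10.2-fold and 2.23-fold to 7.74-fold).

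In the nucleus and at the junctions, 10, 11 and 13 of 19 TCF factors and cofactors were bound, led by the corepressor TLE3 (4.90-fold to 23.7-fold) and the coactivators BCL9L (5.18-fold to 16.6-fold) and CREBBP (6.90-fold to 17.8-fold). Of 5 adherens junction genes, JUP, CTNND1 and CTNNA1 were bound by all 3 proteins, with CTNNA1, which codes for alpha-catenin, at only 1.27-fold to 2.48-fold. Of 12 target genes, 7, 6 and 9 were bound, and SOX9, CCND1 and SP5 by all 3, with cyclin D1 mRNA (CCND1) at 2.12-fold to 7.25-fold.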

How the data were processed

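RIP-seq peak lists of HepG2 cells (2 RIP samples each for METTL16, eIF3a and eIF3b) were analysed, and samples were grouped by the labels. Reads were aligned by the authors with STAR (GRCh38), and RIP enrichment over input was called by exomePeak with its defaults, 1 list per RIP sample. Versions, the annotation and whether inputs were pooled are not given in the sources used here. For each peak the authors deposited blocks, a gene name, a p-value, a log10 score of the p-value and of its adjusted value, and a fold enrichment, which is a ratio. All deposited peaks were used (largest adjusted p-value 0.0501), and the scores served only for ranks and filters. Inputs had no list of their own here. Depth is unknown, so no counting interval was given.

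Gene structures came from GENCODE release 44. Of the inner block boundaries, 99.8% fell on an annotated exon end of that release. Of 10830 gene names, 10325 matched by symbol and 441 by synonym, and 10752 had a gene model on the same chromosome and strand. Coordinates count from 1. Coverage was the percentage of the merged exon bases of a gene under its peaks, and regions, exon numbers and codons refer to the canonical transcript. Coverage was compared between proteins by an exact two-sided permutation test. A gene was bound with a peak in both replicates. The alternatives were a peak in either replicate, peaks of at least 4-fold, 5000 peaks per list by p-value, any peak on the exons, the canonical transcript, shares of peak bases, an overlap of 50%, a replicate block and leaving out each list. All 10 genes were named. Not every liver marker counted is named here. Of the 118 other genes, up to 3 per role bound by all 3 proteins were named, by median fold, and otherwise up to 2 with a peak in the most lists. The genes and lists were chosen with earlier results of these data known. Scripts were tested on simulated data, with Python 3.11.15, pandas 2.3.3, numpy 2.4.6 and scipy 1.17.1.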

Additional observations from a re-analysis of the deposited data

How the results depend on the processing

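The alternatives gave 102 further values for 18 results, of which 70 stayed within 1.5 times the reported count (for shares, within the SD of the replicates), 32 moved and 0 reversed. The fold limit moved most. With peaks of at least 4-fold, the genes bound by METTL16, eIF3a, eIF3b and all 3 numbered 2, 1, 4 and 0 of the 10, and of the other pathway genes 23, 7, 24 and 5. Under the same limit no gene (0) kept a position in all 6 lists, separate genes numbered 2 for METTL16 against eIF3a and 3 for METTL16 against eIF3b, and the coding shares were 60.0%, 75.0% and 40% for METTL16, eIF3a and eIF3b (73.3%, 68.8% and 59.1% with all peaks of both lists). With 5000 peaks per list, METTL16 bound 5 of the 10 genes, eIF3a 6 and all 3 proteins 4, and of the other pathway genes eIF3a bound 21, eIF3b 25 and all 3 proteins 15. Separate genes then numbered 2, 3 and 4 in the comparisons of METTL16 with eIF3a, METTL16 with eIF3b, and eIF3a with eIF3b. With a peak in either replicate, all 3 proteins bound 48 of the other pathway genes. Counted by bases, the coding share was 83.5% for eIF3a and 71.5% for eIF3b. Leaving out a list, which by construction leaves fewer values to overlap, gave 6 to 10 separate genes for METTL16 against eIF3a and 5 to 8 for eIF3a against eIF3b. With the replicate block, in which same-numbered lists are paired, 7, 7 and 4 genes had the same sign in both pairs. The labels give only shared numbers, and nothing says that they mark a shared culture or day. For none of these alternatives were the matching shares over all genes counted, so the shifts cannot be read as particular to the 10 genes. The cause of these shifts was not tested beyond what the construction of each alternative shows.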

Other observations

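Some blocks of these peaks lay outside the canonical exons. On TCF7L2, the peaks of 5 lists (not eIF3a replicate 2) included a block of 73 bases (chr10:113160619-113160691) that is an exon of other annotated transcripts, and no list covered canonical exons 13 and 14 (51 and 73 bases). On LRP5, peaks of 5 lists (not METTL16 replicate 1) included 43 to 194 bases between canonical exons 8 and 9 (chr11:68404223-68404416), which belong to an annotated transcript that is not the canonical one. Blocks follow the transcript model of the peak caller, which the sources used here do not name, so they do not measure splicing. The RNF43 peak with the highest fold in any list, 13.5-fold in eIF3a replicate 2, had 121 bases (chr17:58352859-58352979) on no annotated exon of RNF43, and its p-value was 0.0011.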
